A study of Mus musculus with 12 samples.

Results

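The nuclear pore complex is the only channel for traffic between the nucleus and the cytoplasm, and it is built from many copies of proteins called nucleoporins. The Y complex and the inner ring form its scaffold, membrane proteins anchor it in the nuclear envelope, nucleoporins rich in phenylalanine-glycine (FG) repeats fill the central channel, and filaments extend from it into the cytoplasm and a basket into the nucleus. Cargo crosses the channel bound to receptors of the importin, exportin or mRNA export kind, and the small GTPase Ran, which is bound to GTP in the nucleus and to GDP in the cytoplasm, gives the importins and exportins their direction. The 36 genes described here encode these parts: 26 nucleoporin or pore genes, 3 genes of the Ran cycle, 5 import receptor genes and 2 export receptor genes. They were found by gene symbol among the 55487 genes of the count table, and 35 of them passed the filter on low counts. The remaining gene, Nup210, had at most 2 counts in any sample and was not tested.

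The RNA came from primary mesenchymal stromal cells (MSCs) of the bone marrow of wild-type C57BL/6 mice. Per the study's methods, MSCs were the adherent cells of the femur marrow of young adult females, expanded in culture and stored in liquid nitrogen. There were 3 groups of 4 samples: control MSCs (labelled Negative), MSCs given A1 at 50 μM for 6 h, and MSCs given A1 at 50 μM together with chicken ovalbumin (OVA) at 1 mg/ml for 6 h. A1 is a compound in which the bile acid cholic acid is linked to the nuclear localization signal of hnRNPA1, a signal that the import receptor transportin 1 carries into the nucleus. The label of the A1 + OVA medium also names insulin, without a dose, and that of the A1 medium does not. By these labels, A1 + OVA and A1 differed by OVA and insulin together, and the effects of these cannot be told apart. No group received OVA alone, so that A1 + OVA against A1 measured this addition only in the presence of A1. The labels do not say whether the 4 samples of a group came from separate animals or cultures, and the p-values then measure only the spread between these samples, which may be technical.

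The samples held 13702348 to 16881995 counts each. The 36 genes held 0.536% to 0.566% of the counts in the control samples, 0.567% to 0.603% in the A1 samples and 0.569% to 0.581% in the A1 + OVA samples. Of the MSC markers, Col1a1 stood at 3335 ± 289 CPM (counts scaled to a library of 1e+06 counts after TMM normalization, SD, n = 4) and Cd44 at 175 ± 6.50 CPM in the control samples, whereas Thy1 and Nt5e, which encode CD90 and CD73, stood at 0.267 ± 0.493 and 0.539 ± 0.116 CPM. Of 12 MSC markers tested, 2 rose and 6 fell with A1 at an adjusted p-value under 0.05 (66.7%, beside 62.7% of all tested genes). With A1 + OVA, 2 rose and 7 fell (75%, beside 57.6%). The largest changes with A1 were in Cd44 (log2 fold change 1.39), Cxcl12 (-1.37) and Pdgfra (-0.99). The 14 listed markers summed to 14672 to 15428 CPM in the control, 12224 to 12752 CPM in the A1 and 12417 to 12800 CPM in the A1 + OVA samples, so that both treated groups lay below the control. Their part in the changes of the members was not tested. The 12 leukocyte and macrophage markers summed to 10.8 to 12.2 CPM in the control, 13.5 to 16.4 CPM in the A1 and 12.4 to 14.4 CPM in the A1 + OVA samples, and 2 of them, Spi1 and Tyrobp, had no count in any sample. The 6 endothelial markers summed to at most 1.22 CPM. In these bulk samples a change in the share of a cell type and a change in RNA per cell cannot be told apart.

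The levels of different genes were compared per kilobase of exon, in the plot of expression level by class. Exonic length was the union of all annotated exons of a gene. A gene with exons that these cells do not use can therefore look lower per kilobase. In the control samples the 6 highest genes all encode soluble transport factors, with Ran at 151 ± 4.38 CPM per kb, Kpnb1 (importin beta, the main import receptor) at 132 ± 3.08 CPM per kb and Ranbp1 at 88.0 ± 3.35 CPM per kb (SD, n = 4). These 3 ranges did not overlap each other. Next came Xpo1 (CRM1, the main protein exporter) at 54.5 ± 2.60 and Kpna3 at 53.1 ± 0.918 CPM per kb, whose samples overlapped, and Kpna2. The other soluble factors stood among the pore genes, with Nxf1 at 34.7, Kpna4 at 28.3, Rangap1 at 26.8 and Kpna1 at 11.7 CPM per kb. The scaffold genes ranged from 36.6 ± 1.90 CPM per kb for Seh1l down to 2.20 ± 0.150 CPM per kb for Nup35, although their products sit in the same assembly. Within the Y complex, Seh1l stood at 36.6 and Nup160 at 7.29 ± 0.348 CPM per kb. The lowest tested gene outside the scaffold was Nup214, at 5.83 ± 0.763 CPM per kb. Nup210, which encodes a transmembrane nucleoporin known for its tissue-restricted expression, was at 0.0043 CPM per kb, so that the membrane ring was represented by Ndc1, Pom121 and Aaas alone. With 0 to 2 counts in each of the 12 samples, at or under a floor of 3 counts, no change in Nup210 was detectable at this depth.

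**Figure D1:**
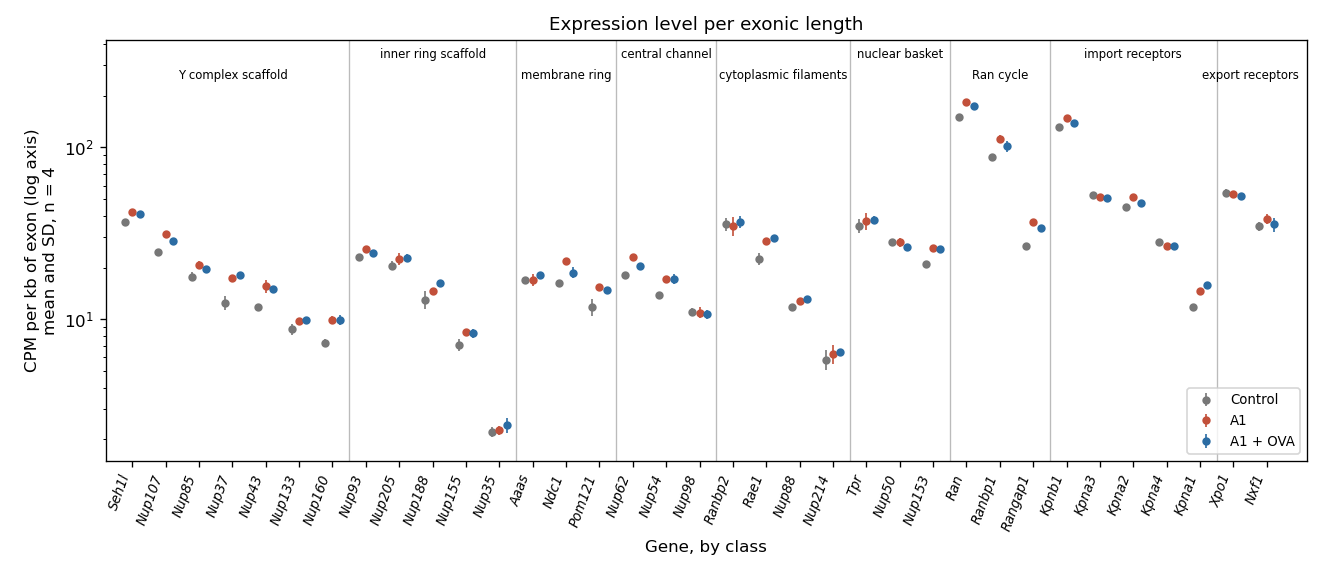
Mean CPM per kilobase of exon (log axis) of the 35 tested genes, grouped by class and ordered within each class by the control level, for control, A1 and A1 + OVA samples (bars, SD, n = 4). Ran, Kpnb1 and Ranbp1 stand highest and Nup35 lowest, and most scaffold genes have their grey control point below the treated points.

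To ask whether A1 changed the genes of the pore and of nuclear transport, A1 and control samples were compared. Of the 35 tested members, 25 rose and 1 fell with an adjusted p-value under 0.05, beside 31.7% and 31.1% of all 11314 tested genes (62.7% in either direction), so that the background was even between the directions and the members were not. The median log2 fold change of the members was 0.18, against -0.0017 over all tested genes. The changes were small in size. The largest was 0.47, the median size of change over all genes was 0.23, and none of the members was a DEG (adjusted p-value under 0.05 and log2 fold change of at least 0.5 in size), whereas 21% of all genes were. By DESeq2, and at an unadjusted p under 0.05 with the same size of change, 0 members were DEGs as well. All 4 A1 samples lay above all 4 control samples in 22 members, beside 28% of all genes, and below them in 1, Kpna4, beside 26.4%. The heatmap of members by sample shows the rise in most classes.

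With A1 + OVA, compared with the same 4 control samples, 22 members rose and 2 fell, beside 29.7% and 27.9% of all tested genes (57.6% in either direction). Their median log2 fold change was 0.17, against 0.0036 over all genes. A single member, Nup37, was a DEG, beside 17.7% of all genes. All A1 + OVA samples lay above all control samples in 23 members, beside 25.4% of all genes, and below them in 1, Nup50, beside 24%. Since both comparisons used the same control samples, they are not independent of each other.

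**Figure D2:**
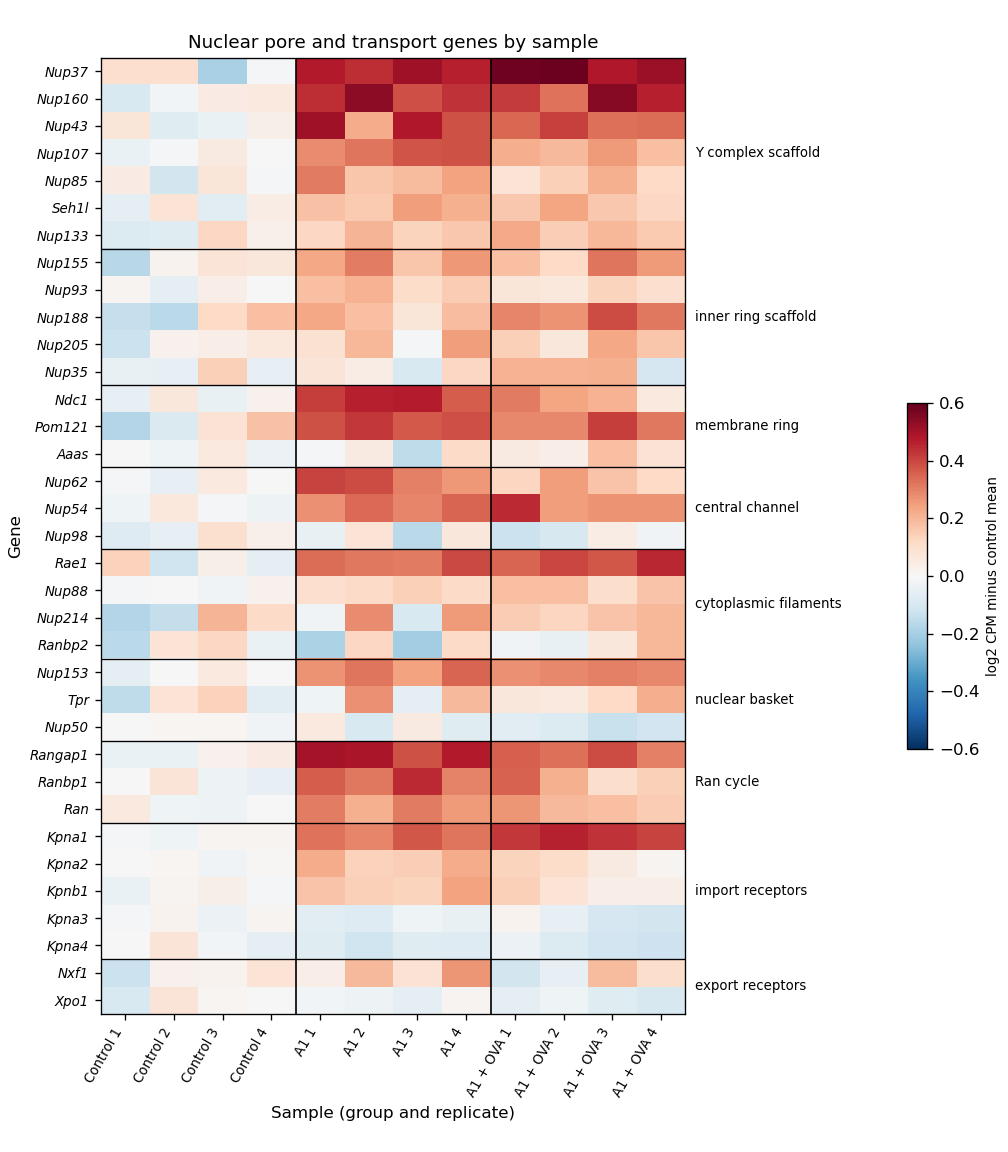
Log2 CPM of each tested member (rows, grouped by class) in each of the 12 samples (columns), minus the mean of the 4 control samples. Y complex and Ran cycle rows are red in all 8 treated samples, while Nup98, Nup50, Kpna3, Kpna4 and Xpo1 stay pale or blue.

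In the scaffold, 11 of 12 genes rose in each comparison. All 7 members listed as Y complex genes rose with A1 (median log2 fold change 0.34) and with A1 + OVA (0.21). In all 7 the treated samples lay above the control samples in both comparisons, beside 28% of all tested genes with A1 and 25.4% with A1 + OVA. Sec13 and Ahctf1 were counted with the further pore and Ran genes. Nup98 was counted with the central channel and was not called in either comparison (log2 fold changes -0.013 and -0.049). This list may therefore not hold the whole Y complex, and the rise of all 7 is a statement about the listed genes only. Nup37, a peripheral subunit of the Y complex (chr10:88146992-88178390, plus strand, GRCm38), changed most. Its CPM were 44.4, 44.4, 36.1 and 41.2 in the control samples, 57.5, 56.3, 58.9 and 57.1 with A1, and 62.0, 62.2, 57.8 and 59.4 with A1 + OVA. Every treated sample lay above every control sample, and the third control sample was the lowest of the 12. The increase was 38.3% with A1 (log2 fold change 0.47, SE 0.057, adjusted p = 3.19e-07) and 45.2% with A1 + OVA (0.54, SE 0.056, adjusted p = 3.61e-08). Without the third control sample, the log2 fold change with A1 + OVA was 0.48, and Nup37 was no longer a DEG. Nup160, one of the long arms of the Y, rose from 63.8 ± 3.05 CPM to 87.3 ± 3.88 CPM with A1 and 86.7 ± 5.53 CPM with A1 + OVA (log2 fold changes 0.45 and 0.44). Nup43, a beta-propeller subunit, rose by 32.2% and 27.9%. The other subunits moved less: Nup85 by 17.1% and 10.2% (the latter not called without the second control or the third A1 + OVA sample, adjusted p up to 0.0731), Seh1l, which also serves in a nutrient-sensing complex at the lysosome, by 14.8% and 12.5%, and Nup133 by 11.3% and 13.3%.

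Nup107, a further subunit of the Y complex (chr10:117750621-117792705, minus strand), had 92.6, 94.5, 98.9 and 94.99 CPM in the control samples, 116, 119, 124 and 124 CPM with A1, and 111, 109, 114 and 108 CPM with A1 + OVA. The 3 groups did not overlap, and the A1 + OVA samples lay between the others. It rose by 26.5% with A1 (log2 fold change 0.34, SE 0.038, adjusted p = 9.42e-08) and by 15.8% with A1 + OVA (0.21, SE 0.038, adjusted p = 5.73e-05), and it was lower with A1 + OVA than with A1 (-0.13, SE 0.038, adjusted p = 0.0294). This last call was lost without A1 sample 3 or 4 or A1 + OVA sample 2 or 4 (adjusted p = 0.0725 to 0.0888).

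In the inner ring, which connects the scaffold to the membrane and the channel, 4 of 5 genes rose in each comparison (median log2 fold changes 0.16 and 0.15). Nup155, which contacts the pore membrane (chr15:8109273-8161247, plus strand), had 75.6, 86.0, 89.5 and 88.8 CPM in the control samples, 99.6, 105, 95.3 and 101.6 CPM with A1, and 96.0, 92.0, 106 and 101 CPM with A1 + OVA. Both treated groups lay above the control group and overlapped each other. The log2 fold changes were 0.24 (SE 0.054, adjusted p = 0.000561) and 0.22 (SE 0.053, adjusted p = 0.00141). Nup93, the linker that holds the ring together, rose by 12% with A1 and by 6.55% with A1 + OVA (adjusted p = 0.0416), and the latter call was lost in 14 of 20 alternative fits, 7 of them with a sample left out (control 2 or 4, A1 1, 3 or 4, A1 + OVA 3 or 4, adjusted p up to 0.112). The large ring subunits Nup205 and Nup188 rose by 9.86% and 11.8% with A1, in samples that overlapped the control samples, and by 11.1% and 24.1% with A1 + OVA. The A1 call of Nup205 was lost without control sample 1 or A1 sample 2 or 4 (adjusted p up to 0.172), that of Nup188 without control sample 1 or 2 or A1 sample 1, 2 or 4 (up to 0.135), and the A1 + OVA call of Nup205 without control sample 1 or A1 + OVA sample 3 (up to 0.0692). Nup35, a membrane-binding subunit, had a log2 fold change of 0.040 with A1 (95% interval -0.17 to 0.25) and 0.13 with A1 + OVA (-0.067 to 0.33). It is the lowest of the tested members, with 91 to 135 counts a sample, and 3.89% of its exonic bases are shared with Dusp19 on the same strand. Gm4353, annotated as protein-coding, is 99.6% identical over 99.2% of the Nup35 transcript and had at most 12 counts a sample, and how reads were divided between the copies could not be seen from the counts.

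Of the 3 membrane ring genes that were tested, Ndc1 and Pom121 rose in both comparisons. Ndc1, a transmembrane nucleoporin needed to insert pores into the envelope (chr4:107367784-107416346, plus strand), had 77.0, 83.3, 77.2 and 80.9 CPM in the control samples, 106, 110, 110 and 103 CPM with A1, and 98.9, 93.8, 92.0 and 83.0 CPM with A1 + OVA. The A1 samples stood apart from both other groups, and the fourth A1 + OVA sample fell within the control range. The log2 fold change was 0.43 with A1 (SE 0.049, adjusted p = 1.17e-07) and 0.21 with A1 + OVA (SE 0.049, adjusted p = 0.00104). Ndc1 was lower by 14.3% with A1 + OVA than with A1 (-0.22, SE 0.048, adjusted p = 0.00393), the largest difference between the treatments among the members, and this held in all 20 alternative fits (log2 fold change -0.26 to -0.18). Pom121, which also anchors the pore, rose by 30.5% and 24.9%. Aaas, the gene of the pore protein aladin, which NDC1 holds at the envelope, had log2 fold changes of 0.0036 (95% interval -0.11 to 0.12) and 0.090 (-0.022 to 0.20).

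In the central channel, Nup62 and Nup54, whose products form the FG-repeat plug together with Nup58, rose in both comparisons and Nup98 did not. Nup62 (chr7:44816088-44830812, plus strand) had 51.2, 49.9, 53.8 and 51.8 CPM in the control samples, 68.5, 67.8, 63.7 and 61.8 CPM with A1, and 56.5, 61.5, 58.2 and 56.1 CPM with A1 + OVA. The 3 groups did not overlap. It rose by 26.6% with A1 (log2 fold change 0.34, SE 0.048, adjusted p = 2.47e-06) and by 12.4% with A1 + OVA (0.17, SE 0.048, adjusted p = 0.00454). It was lower with A1 + OVA than with A1 (-0.17, SE 0.048, adjusted p = 0.0204), a call lost without A1 sample 1 or 2 or A1 + OVA sample 4 (adjusted p = 0.0623 to 0.0711), while Nup54 was at 57.3 ± 1.44 and 57.2 ± 3.80 CPM with the treatments and 46.1 ± 1.41 CPM in the control samples. Nup98, an FG nucleoporin with a part in the permeability barrier and in mRNA export, had log2 fold changes of -0.013 (95% interval -0.12 to 0.097) and -0.049 (-0.16 to 0.060). The gene of the third channel protein, Nup58, which is not a member, had 0 or 1 counts in each sample, and 48.8% of its exonic bases are shared with a read-through gene model that had 1306 to 1734 counts. No level of Nup58 could therefore be given.

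**Figure D3:**
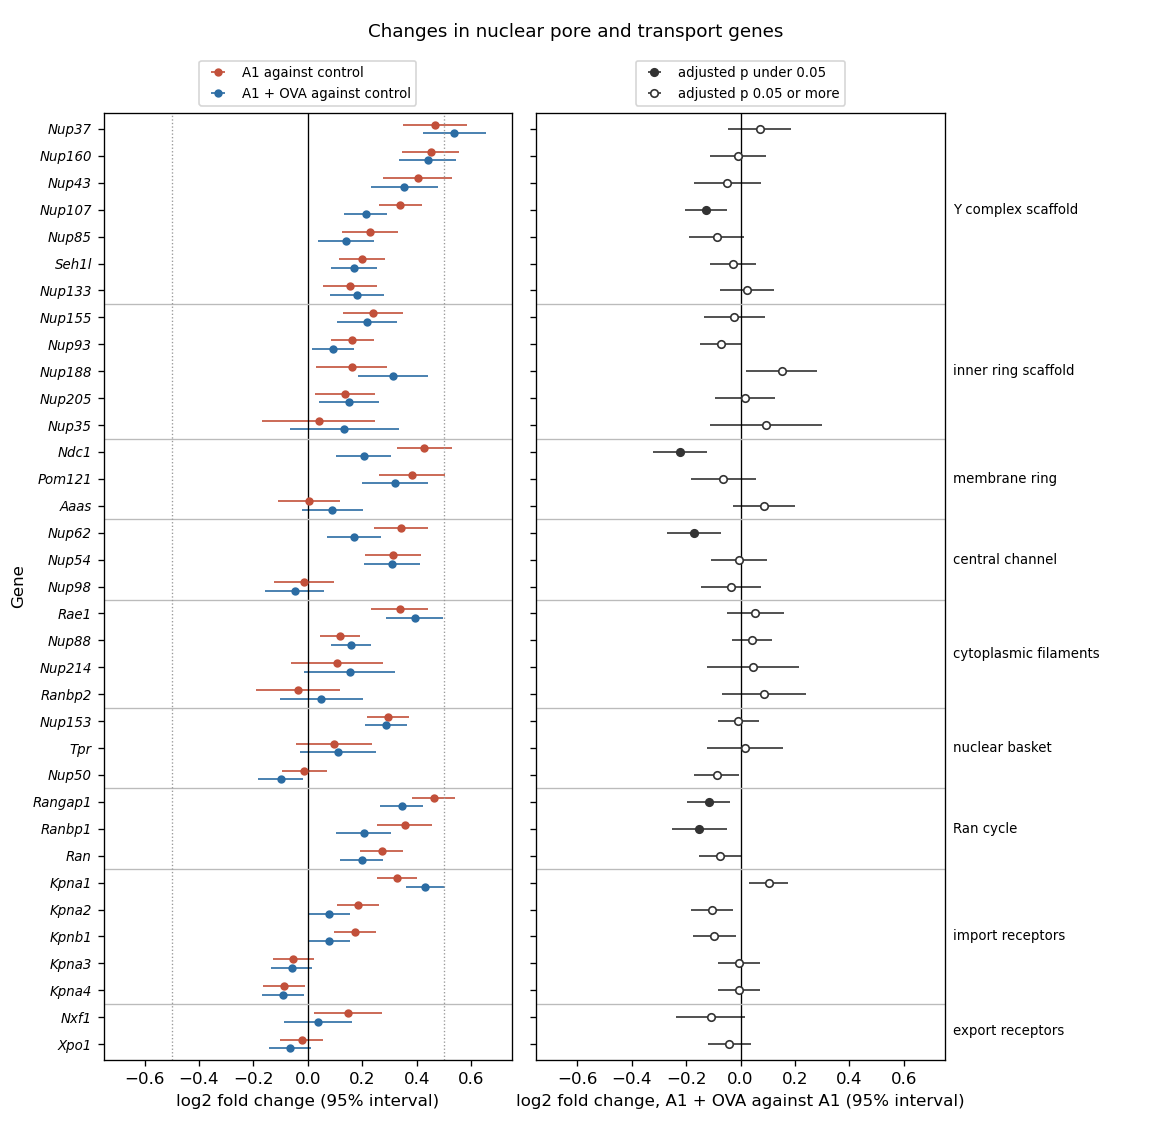
Left, log2 fold change of each tested member with A1 (red) and with A1 + OVA (blue) against control, with 95% intervals; dotted lines mark 0.5 in each direction. Right, log2 fold change of A1 + OVA against A1, with filled points for the 5 members with an adjusted p-value under 0.05 (Nup107, Ndc1, Nup62, Rangap1 and Ranbp1), all below 0.

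On the cytoplasmic face, 2 of 4 filament genes rose in each comparison. Rae1, an mRNA export factor that binds Nup98 (chr2:173000117-173015739, plus strand), had 63.2, 52.8, 58.7 and 55.3 CPM in the control samples, 72.5, 71.5, 71.1 and 75.4 CPM with A1, and 73.2, 75.7, 74.4 and 78.5 CPM with A1 + OVA. Every treated sample lay above every control sample. The log2 fold changes were 0.34 (SE 0.051, adjusted p = 6.11e-06) and 0.39 (SE 0.050, adjusted p = 7.53e-07). Nup88, which tethers the mRNA export platform, rose by 8.55% and 11.7%. Nup214, its FG-repeat partner, and Ranbp2, the giant filament protein that acts as a SUMO ligase and binds Ran, did not pass the test. Their log2 fold changes with A1 were 0.11 (95% interval -0.062 to 0.28) and -0.036 (-0.19 to 0.12). With A1 + OVA they were 0.15 (-0.013 to 0.32, adjusted p = 0.107) and 0.050 (-0.10 to 0.20). Nup214 was called higher with A1 + OVA with no filter on low counts (adjusted p = 0.0420) and without control sample 3 (adjusted p = 0.0225). Both varied widely in the control and A1 samples, while Nup214 was at 62.6 ± 1.24 CPM with A1 + OVA. Ranbp2 had 374, 442, 455 and 406 CPM in the control samples. With A1 it had 366, 455, 361 and 453 CPM, so that the replicates fell into a lower and a higher pair. The same pairs were the closest A1 samples over the genes as a whole. They differed by 3.05 (samples 1 and 3) and 3.60 (samples 2 and 4) times the counting variance, and the other A1 pairs by 7.36 to 9.82. The cause was not tested.

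In the nuclear basket, Nup153 rose alone. Nup153, which docks the basket and binds importins (chr13:46679905-46727940, minus strand), had 142, 148, 154 and 148 CPM in the control samples, 178, 185, 175 and 188 CPM with A1, and 179, 180, 183 and 181 CPM with A1 + OVA. The treated groups lay above the control group by 22.7% (log2 fold change 0.30, SE 0.037, adjusted p = 4.68e-07) and 22.1% (0.29, SE 0.037, adjusted p = 7.43e-07). Tpr, the filament protein of the basket, had log2 fold changes of 0.097 (95% interval -0.043 to 0.24) and 0.11 (-0.027 to 0.25). Nup50, a mobile cofactor that helps to release cargo from importin alpha, was at 138 ± 1.59 CPM in the control and 137 ± 7.61 CPM in the A1 samples. With A1 + OVA it fell by 6.66%, to 129 ± 2.79 CPM (log2 fold change -0.099, SE 0.039, adjusted p = 0.0356), a call lost without control sample 2 or 3 or A1 + OVA sample 2, 3 or 4 (adjusted p = 0.0528 to 0.0940).

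All 3 Ran cycle members rose in both comparisons, as the plot of Ran cycle and importin alpha genes shows. Of all tested genes, 31.7% rose with A1 and 29.7% with A1 + OVA. In all 3 the treated samples lay above the control samples, beside 28% of all tested genes with A1 and 25.4% with A1 + OVA. Rangap1, the GTPase-activating protein that makes Ran hydrolyse GTP at the cytoplasmic face (chr15:81704248-81745530, minus strand), had 127, 127, 133 and 135 CPM in the control samples, 185, 183, 170 and 181 CPM with A1, and 167, 164, 171 and 161 CPM with A1 + OVA. It rose by 37.8% with A1 (log2 fold change 0.46, SE 0.038, adjusted p = 9.26e-10) and by 27% with A1 + OVA (0.35, SE 0.038, adjusted p = 1.01e-07). The third A1 sample overlapped the A1 + OVA range, and the treatments differed by -0.12 (SE 0.038, adjusted p = 0.0466). This difference lost its call in 11 of 20 alternative fits, among them those without control 3 or 4, A1 1, 2 or 4, or A1 + OVA 1, 2 or 4 (adjusted p up to 0.141).

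Ranbp1, a cofactor of that hydrolysis (chr16:18239784-18248732, minus strand), had 147, 154, 143 and 142 CPM in the control samples, 188, 182, 200 and 180 CPM with A1, and 187, 170, 158 and 162 CPM with A1 + OVA. The first A1 + OVA sample lay within the A1 range and the others below it. The log2 fold changes were 0.36 (SE 0.049, adjusted p = 1.89e-06) with A1, 0.20 (SE 0.049, adjusted p = 0.00114) with A1 + OVA, and -0.15 (SE 0.049, adjusted p = 0.0448) between the treatments. The difference between the treatments lost its call in 10 of 20 fits, among them those without control 3 or 4, A1 1, 2 or 3, or A1 + OVA 2, 3 or 4 (adjusted p up to 0.142). In the annotation, 16.9% of its exonic bases are shared with a read-through model on the same strand that had no counts. Ran itself, the most highly expressed member per kilobase, rose from 400 ± 11.6 CPM to 483 ± 15.6 CPM with A1 (20.7%) and 459 ± 15.5 CPM with A1 + OVA (14.7%). Rcc1, the exchange factor that loads Ran with GTP on chromatin, is not a member but completes the cycle, and it changed more than any member. It had 38.1, 34.8, 38.4 and 34.9 CPM in the control samples, 69.9, 67.0, 74.4 and 71.8 CPM with A1, and 66.7, 65.2, 68.8 and 64.5 CPM with A1 + OVA. Its increases of 93.7% (log2 fold change 0.95, SE 0.050, adjusted p = 3.67e-13) and 81.3% (0.86, SE 0.049, adjusted p = 2.30e-12) made it a DEG in both. The exons of Rcc1 share 3.51% of their bases with the noncoding host gene Snhg3 on the same strand.

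**Figure D4:**
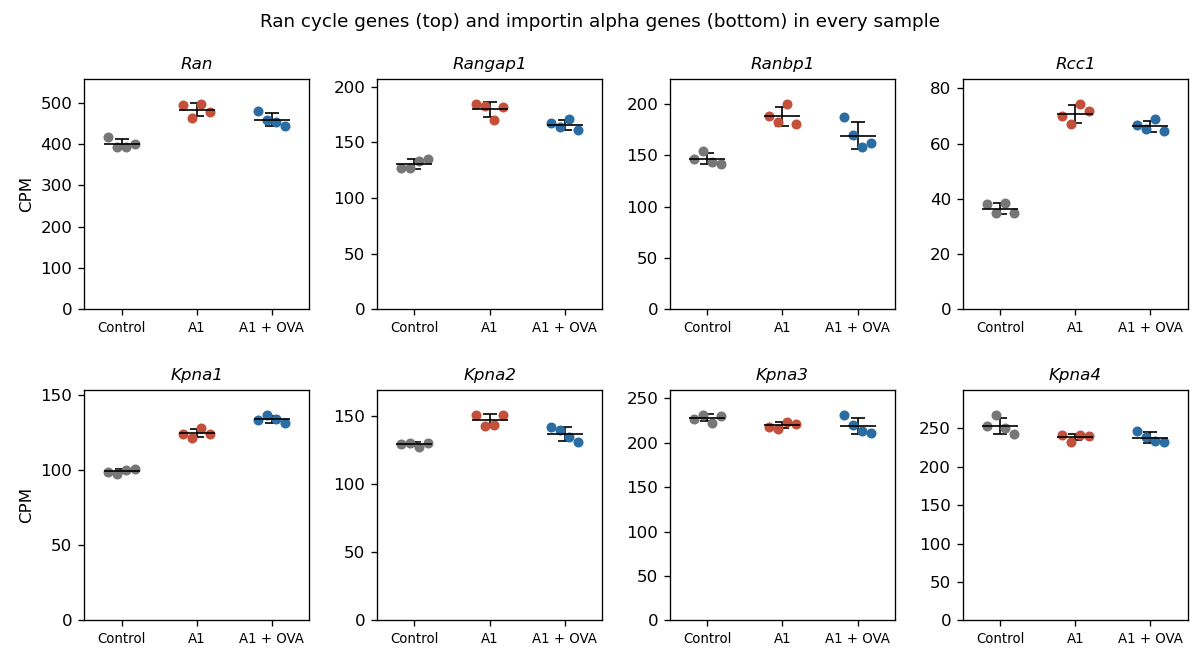
CPM of the Ran cycle genes (top row, with Rcc1, which is not a member) and of the 4 importin alpha members (bottom row) in every sample; coloured points are samples, black bars the mean and SD (n = 4), and all axes start at 0. Rcc1 is higher by 93.7% with A1 and 81.3% with A1 + OVA, Kpna1 lies highest with A1 + OVA, and Kpna3 and Kpna4 are slightly below control.

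The import receptor genes differed among themselves. Importin alpha proteins bind the classical nuclear localization signal and are carried by importin beta. With A1, Kpna1, Kpna2 and Kpnb1 rose, Kpna4 fell by 5.81% (log2 fold change -0.086, SE 0.037, adjusted p = 0.0486) and Kpna3 did not pass the test (-0.054, 95% interval -0.13 to 0.022). Kpna6, a further importin alpha gene that is not a member, was lower with A1 (log2 fold change -0.11, adjusted p = 0.0185). It was also lower with A1 + OVA (-0.12, adjusted p = 0.0165). Kpna1 (chr16:35978750-36037131, plus strand) had 98.6, 97.6, 100 and 101 CPM in the control samples, 124, 122, 128 and 124 CPM with A1, and 133, 137, 134 and 131 CPM with A1 + OVA. The 3 groups did not overlap, and the order was control, A1, A1 + OVA. The log2 fold changes were 0.33 (SE 0.035, adjusted p = 4.74e-08) and 0.43 (SE 0.034, adjusted p = 5.59e-10), and the difference of 0.10 between the treatments had an adjusted p of 0.0508.

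Kpna2, the importin alpha of proliferating cells, rose from 130 ± 1.33 to 147 ± 4.65 CPM with A1 (13.6%) and stood at 137 ± 5.17 CPM with A1 + OVA, where it did not pass the test (adjusted p = 0.0753). Kpnb1 behaved alike in size, with 868 ± 20.3, 979 ± 33.0 and 916 ± 31.3 CPM in the 3 groups, a rise of 12.7% with A1 and an adjusted p of 0.0809 with A1 + OVA. Kpna4 stood at 253 ± 10.4, 239 ± 3.97 and 238 ± 6.75 CPM and passed the test in both comparisons by a margin that did not hold: the call with A1 was lost in 13 of 20 alternative fits and that with A1 + OVA (-0.091, adjusted p = 0.0397) in 8. They were lost without control 1, 2 or 3, and also without A1 1, 2 or 4 or A1 + OVA 2, 3 or 4 for A1 (adjusted p up to 0.165), and without A1 + OVA 2, 3 or 4 for A1 + OVA (up to 0.139). Kpna2 has 10 near copies of at least 90% identity in the transcriptome, among them Gm10184, which is 99.9% identical. That copy had at most 24 counts a sample. The most counted near copy, Med20, is 92.6% identical over 92.1% of the Kpna2 transcript and had at most 381 counts a sample. How reads were divided between Kpna2 and its copies could not be seen from the counts.

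Of the export receptor members, 1 passed the test, with A1 alone. Nxf1, the mRNA export receptor (chr19:8757073-8770922, plus strand), had 140, 156, 156 and 162 CPM in the control samples, 158, 176, 163 and 184 CPM with A1, and 142, 148, 175 and 165 CPM with A1 + OVA. The 3 groups overlapped. Nxf1 rose by 10.7% with A1 (log2 fold change 0.15, SE 0.061, adjusted p = 0.0398; not called without control sample 1, 2 or 3 or A1 sample 2 or 4, adjusted p up to 0.190) and had a log2 fold change of 0.037 with A1 + OVA (95% interval -0.088 to 0.16). Xpo1 had log2 fold changes of -0.023 (95% interval -0.10 to 0.056) and -0.065 (-0.14 to 0.014). Over the classes, the 12 scaffold genes had 11 increases in each comparison. Of all tested genes, 31.7% were higher with A1 and 29.7% with A1 + OVA. The 7 receptor genes had 4 increases and 1 decrease with A1 (71.4% called, beside 62.7% of all genes). With A1 + OVA they had 1 of each (28.6%, beside 57.6%). At an unadjusted p under 0.05, 3 receptor genes were higher with A1 + OVA and 1 was lower. The share of all genes at that threshold was not computed. In 3 receptor genes all A1 + OVA samples lay above all control samples, beside 25.4% of all tested genes. The difference between classes was not tested.

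When A1 + OVA was compared with A1, 5 of the 35 tested members were lower: Nup107, Ndc1, Nup62, Rangap1 and Ranbp1. This was beside 6.81% of all tested genes lower and 6.05% higher (12.9% in either direction), and beside 1.2% that were DEGs, which 0 members were by edgeR, by DESeq2 or at an unadjusted p under 0.05. By edgeR 0 members were higher, as by DESeq2, and 2 were higher at an unadjusted p under 0.05, Kpna1 and Nup188. The median log2 fold change of the members was -0.022, against 0.0057 over all genes, and the size of the 5 differences ran from 0.12 to 0.22. Of the 5, the call of Ndc1 held under each of the 20 alternative fits, and those of the other 4 were lost under some of them. Separation of all samples was seen in 4 members with A1 + OVA below A1 (beside 9.58% of all genes) and in 2 with A1 + OVA above A1 (beside 8.56%). By the labels, these groups differed in insulin as well as in OVA.

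The other genes of nuclear transport moved in more than one direction. Among 14 tested further import receptor genes, 6 rose and 3 fell with A1 (64.3% called, beside 62.7% of all tested genes). With A1 + OVA, 6 rose and 2 fell (57.1%, beside 57.6%). Tnpo1, the transportin 1 that recognizes the signal carried by A1, had 275, 312, 300 and 292 CPM in the control samples, 357, 371, 361 and 372 CPM with A1, and 348, 349, 364 and 339 CPM with A1 + OVA. Both treated groups lay above the control group (log2 fold changes 0.31, SE 0.040, adjusted p = 8.61e-07, and 0.25, SE 0.040, adjusted p = 1.87e-05). Hnrnpa1, the source of that signal, rose from 500 ± 20.5 to 601 ± 20.1 CPM with A1 (log2 fold change 0.26, SE 0.041) and was at 546 ± 24.8 CPM with A1 + OVA (0.13, SE 0.041, adjusted p = 0.0116), lower than with A1 (-0.14, SE 0.041, adjusted p = 0.0301; not called without A1 sample 2, 3 or 4 or A1 + OVA sample 1 or 2, adjusted p up to 0.0971). Of the 13 listed genes of transportin 1 cargoes, Hnrnpa1 included, 7 rose and 1 fell with A1 (61.5%, beside 62.7% of all tested genes). With A1 + OVA, 4 rose and 2 fell (46.2%, beside 57.6%). Between the treatments, 4 were lower with A1 + OVA than with A1 (30.8%, beside 6.81% of all genes lower).

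Of 22 further export receptor and mRNA export genes, 15 rose and 2 fell with A1 (77.3%, beside 62.7% of all tested genes). With A1 + OVA, 11 rose and 2 fell (59.1%, beside 57.6%). Xpo4 was a DEG in both comparisons and Xpo5 with A1 alone. Xpo4, an exportin with several protein cargoes, rose from 87.2 ± 5.88 to 131 ± 6.88 and 127 ± 3.02 CPM (log2 fold changes 0.59 and 0.54). Xpo5, the exporter of microRNA precursors, rose from 173 ± 7.03 to 245 ± 8.12 and 241 ± 7.12 CPM (0.50 and 0.48). With A1 Xpo5 stood at the size threshold: it was not a DEG by DESeq2, with other size factors or filters, or without control sample 1 or 2 or A1 sample 1, 2 or 4. Without control sample 1, Xpo4 was not a DEG with A1 + OVA, and without control sample 4 Xpo5 was. Of 10 further pore and Ran genes, 8 rose and 1 fell with A1 (90%, beside 62.7%). With A1 + OVA, 7 rose and 1 fell (80%, beside 57.6%). Between the treatments, 5 of the 22 export genes were lower with A1 + OVA than with A1, by edgeR as by DESeq2, beside 6.81% of all genes (Xpo7, Ddx19a, Gle1, Eny2 and Thoc3, log2 fold changes -0.21 to -0.15, named after their values were seen). The count was 2 or 3 without any single one of the A1 samples or without A1 + OVA sample 3 or 4. Of the 10 pore and Ran genes 1 was lower, Senp1 (-0.21, adjusted p = 0.00515), a SUMO protease, also named after its value was seen. None of the 14 import receptor genes differed by edgeR, by DESeq2 or at an unadjusted p under 0.05.

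Genes of the cell cycle were measured beside the members. Of 15 S phase genes, 14 rose with A1 (median log2 fold change 0.31), beside 31.7% of all tested genes. With A1 + OVA, 8 rose and 3 fell (0.092), beside 29.7% and 27.9%. Between the treatments, 12 were lower with A1 + OVA than with A1 (-0.24), beside 6.81%. Their summed level was 1987 to 2064 CPM in the control, 2371 to 2495 CPM in the A1 and 2030 to 2137 CPM in the A1 + OVA samples. Cdc6 and Cdt1, which license replication origins, and Ccne2, a G1/S cyclin, were DEGs with A1 (0.69, 0.60 and 0.50). Of 18 mitosis genes, 4 rose and 5 fell with A1 (50%, beside 62.7% of all tested genes), and 7 fell with A1 + OVA (38.9%, beside 57.6%). The summed levels of the mitosis list overlapped between A1 and each other group but not between A1 + OVA and the control, at 2836 to 3222 CPM in the control, 2678 to 2969 CPM in the A1 and 2631 to 2791 CPM in the A1 + OVA samples. The part of the cell cycle genes in the changes of the members was not tested.

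The log2 fold change also followed exonic length over all genes, as the plot of change against length shows. With A1, the median over all tested genes was 0.043 for genes under 3 kb and -0.046 for genes over 7 kb. Among the members, 6 of 7 under 3 kb, 9 of 12 from 3 to 5 kb, 3 of 3 from 5 to 7 kb and 7 of 13 over 7 kb rose. Of all tested genes in these classes, 33.5%, 33.6%, 32.2% and 27.1% rose. The members' medians were 0.34, 0.21, 0.17 and 0.12. In each class the members' median was above that of all genes. Nup160 and Kpna1 are long and rose by 36.7% and 25.5%, and Aaas is short and differed by 0.252%. Among the tested members, the largest spreads between replicates were in long genes, with mean coefficients of variation of 9.77% for Ranbp2, 9.37% for Nup214 and 8.55% for Tpr. The smallest were in long genes as well, at 1.74% for Nup88 and 1.82% for Kpna1. The shorter Nup35 and Nxf1 stood at 7.75% and 7.57%.

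**Figure D5:**
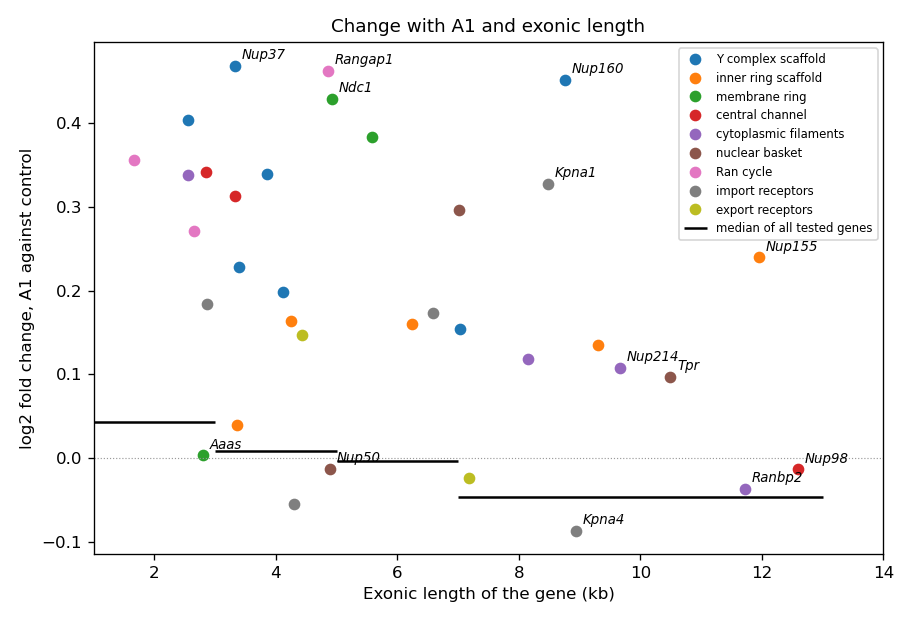
Log2 fold change with A1 against exonic length in kb for the 35 tested members, coloured by class; black lines give the median over all tested genes under 3 kb, from 3 to 5 kb, from 5 to 7 kb and over 7 kb. The members under 3 kb lie mostly near 0.34, and those over 7 kb scatter from -0.086 for Kpna4 to 0.45 for Nup160.

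Promoter sequence was examined because so many members moved together. RefSeq promoter windows (GRCm38.p6, 250 bases before to 50 bases after the start of transcription) were matched by symbol for 30 of the 36 members, in 34 windows. Of 7 motifs searched on both strands, GCGCATG, part of the binding site of nuclear respiratory factor 1 (NRF1), was in 8 of 34 member windows (23.5%), in 7.15% of the windows of tested genes and in 3.91% of all windows. The E-box CACGTG was in 14.7% of member windows and 9.92% of those of tested genes, the CCAAT box in 47.1% and 38.3%, the GC box GGGCGG in 73.5% and 63.7%, the ETS core CCGGAAG in 20.6% and 18.3%, the E2F core GGCGGGA in 23.5% and 21.3%, and the cyclic AMP response element TGACGT in 11.8% and 11.7%. The GC box and E2F core can overlap each other. The full NRF1 palindrome GCGCATGCGC, which contains those letters on both strands, was in 4 of 34 member windows (11.8%), in 2.17% of those of tested genes and in 0.971% of all windows. The 60 bases around each copy are shown, with the palindrome in capitals, since its holders include genes that rose and a gene that did not.
Nup107 (chr10:117792736-117792795, minus strand): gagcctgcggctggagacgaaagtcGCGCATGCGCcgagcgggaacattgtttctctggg
Nup62 (chr7:44816028-44816087, plus strand): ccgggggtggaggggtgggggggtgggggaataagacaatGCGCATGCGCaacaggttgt
Ran (chr5:129019926-129019985, plus strand): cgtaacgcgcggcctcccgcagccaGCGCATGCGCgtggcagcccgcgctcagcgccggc
Nup50, distal copy (chr15:84923236-84923295, plus strand): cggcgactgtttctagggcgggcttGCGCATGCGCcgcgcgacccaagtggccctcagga
Nup50, proximal copy (chr15:84923298-84923357, plus strand): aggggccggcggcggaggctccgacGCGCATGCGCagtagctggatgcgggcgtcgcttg
Nup107, Nup62 and Ran rose in both comparisons, with log2 fold changes with A1 of 0.34, 0.34 and 0.27. Nup50, which holds the palindrome at 2 places, had -0.012 with A1 and was lower with A1 + OVA. The letters GCGCATG were in 7 of 24 windows of members that rose with A1 (29.2%) and in 1 of 8 windows of members that were not called (12.5%). The split was not tested, and other motifs were split between these windows as well: the E2F core was in 7 of 24 and 0 of 8, the ETS core in 6 and 1, the E-box in 4 and 1, the GC box in 18 and 5, the CCAAT box in 10 and 5, and TGACGT in 2 and 2. A match is a description of the letters in the window and shows neither a bound site nor a cause.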

How the data were processed

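RNA-seq of 12 samples was used. The authors sequenced polyA-selected, strand-specific libraries, aligned the paired reads to GRCm38 with STAR (version 2.7 per the labels), counted them per gene with featureCounts (version 2.0) and deposited raw counts, without normalization. Symbols, coordinates, exonic lengths and biotypes came from GENCODE M21, which holds 99.53% of the gene identifiers. Protein-coding genes that passed filterByExpr (11314) were scaled by TMM and tested by the quasi-likelihood method of edgeR (version 4.0.16 under R 4.3.3), with the 3 groups in a single model, with Benjamini-Hochberg adjustment over all of them, where the authors' methods name DESeq2 (version 1.42.0, run as an alternative). CPM are counts scaled to a library of 1e+06.

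The members and gene lists were chosen with earlier results of these data known. Every member is named. Values of each sample are given for members that were DEGs, that changed most with A1 in their class, or that differed between the treatments. Genes of other lists were named if they were DEGs, up to 3 a list, beside Tnpo1 and Hnrnpa1. Ranbp2, Nup58, Kpna6 and the cell type markers were added after their values were seen. Sec13 and Ahctf1 were named without values. Tested on simulated data of 11314 genes (A1 against control), edgeR recovered 60% of genes changed by 0.3 on the log2 scale. Of those changed by 0.6, 1 and 2 it recovered 98%, 90% and 94%, and it called 8 unchanged genes. Only 50 genes were changed at each size, and every gene was given the same dispersion. In the data 7098 genes were called with A1, so that these rates do not give the power of the real comparisons. Counting depth was 13702348 to 16881995 a sample, and 4 samples a group limit the precision. Near copies were sought with blastn 2.17.0. Any pair of replicates differed by at least 2.30 times the counting variance, so that none is a copy of another. Protein sequence features were not analysed here.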

Additional observations from a re-analysis of the deposited data

Results flagged for a closer look

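In 7 of the 105 sets of 4 samples (35 members in 3 groups), a sample stood far from the other 3 by Dixon's criterion at the 95% level, where chance gives about 5% of sets. With A1 + OVA, Nup43 was at 39.9 CPM in replicate 2 (others 37.8 to 38.1), Nup35 at 6.90 CPM in replicate 4 (others 8.55 to 8.58), Nup54 at 62.8 CPM in replicate 1 (others 54.8 to 55.6) and Nup88 at 103 CPM in replicate 3 (others 108 to 109). In the control group, replicate 3 was apart for Nup35, at 8.17 CPM (others 7.15 to 7.18), and for Kpna2, at 128 CPM (others 130.0 to 130.5). With A1, Kpna4 was at 233 CPM in replicate 2 (others 240.1 to 240.9), and its call of lower expression with A1 was lost without that sample (adjusted p = 0.130). The 7 values came from 6 samples of the 3 groups.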

How the results depend on the processing

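Of the members called in A1 against control, 22 of 26 kept their call and direction in each of 20 alternative fits, as did 19 of 24 in A1 + OVA against control and 1 of 5 in A1 + OVA against A1. No call changed direction. The number of lower members with A1, 1, became 0 with DESeq2 size factors, with no filter on low counts, with only the 2 groups compared and with the replicate block, and 2 with upper-quartile normalization. With A1 + OVA, lower members went from 2 to 4 with upper-quartile normalization and 1 with no filter or only the 2 groups compared, and the DEG was lost (0) at a log2 fold change of 1. Between the treatments, higher members went from 0 to 1 with upper-quartile normalization, at least 10 counts in every sample or only the 2 groups compared, and lower members from 5 to 3 with upper-quartile normalization. When each sample was left out in turn, lower members ranged from 0 to 1 with A1, 0 to 2 with A1 + OVA and 1 to 6 between the treatments, higher members from 0 to 1 between the treatments, and DEG members from 0 to 1 with A1 and 0 to 1 with A1 + OVA. Lower members between the treatments were fewest without the fourth A1 + OVA sample, at 1, and 2 without the first or second A1 sample or the second A1 + OVA sample. The cause of these differences was not tested.

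The calls lost in some fits were those of Nup205, Nup188, Kpna4 and Nxf1 with A1, of Nup85, Nup93, Nup205, Nup50 and Kpna4 with A1 + OVA, and of Nup107, Nup62, Rangap1 and Ranbp1 between the treatments. The samples with the same replicate number did not deviate together (mean correlation 0.021 over 12 pairs, against -0.0070 over 36 pairs with different numbers), and the numbers were not taken as pairs. With the replicate block, 25, 21 and 0 members were higher and 0, 2 and 4 lower in the 3 comparisons. Upper-quartile normalization moved the median of all genes by -0.029 with A1, the largest shift of any scaling.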
